A study of Homo sapiens with 31 samples.

Results

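SCARF1, GIPC1 and HGFAC are the genes at the 3 strongest CTBP2 binding sites that had no CTBP2 peak after 4× PLDLS was switched on in MUTZ3 leukemia cells. They were selected on the CTBP2 ChIP-seq peak lists of these cells: among merged intervals with a peak in both untreated CTBP2 lists and in neither dox list, the 3 that ranked first by fold enrichment in untreated library 1 lay in or next to these genes. Every peak of 13 lists that touched a gene body or the 30 kb on either side of it was taken, which gave 153 of 533140 peaks, with 74 around SCARF1, 54 around GIPC1 and 25 around HGFAC. The 3 genes stand among 20163 protein-coding genes on chromosomes 1 to 22, X and Y.

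EVI1, encoded at the MECOM locus, is a zinc finger transcription factor that drives leukemia when it is wrongly switched on, and CTBP2 is a corepressor that transcription factors bring to DNA. Corepressors of this kind dock on short PXDLS-like motifs of their partners, and PLDLS is the motif of EVI1 on which the study's competitor is built. A protein with 4 copies of PLDLS competes with EVI1 for CTBP2, and 4× PLASS is its mutated control. SCARF1 is a scavenger receptor that takes up modified lipoproteins. GIPC1 is an adaptor that ties membrane receptors to the motor protein myosin VI. HGFAC is a secreted protease that activates hepatocyte growth factor. ChIP-seq finds where a protein sits on the genome from DNA recovered with an antibody, and a peak is a region where that DNA outweighs the background.

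The study has 31 samples, of which 13 peak lists were examined. MUTZ3 is a human acute myeloid leukemia line in which a rearranged chromosome 3 activates EVI1. Its pCW-4xPLDLS derivative, a transduced population, makes 4× PLDLS when doxycycline (dox) is added, and CTBP2 and EVI1 were each profiled in 2 untreated and 2 dox libraries at 72 h, all from chromatin fixed with disuccinimidyl glutarate (DSG) as well as formaldehyde. The CTBP2 and EVI1 libraries of a treatment share 1 input, so their peak lists are not fully independent of each other. Both untreated and dox cells carry the construct. CTBP2 was also profiled in 2 libraries of MUTZ3 cells with a retroviral 4× PLASS construct, CTBP2 and EVI1 in 1 library each of unmodified MUTZ3, and CTBP2 in 1 library of MOLM1, a line from a chronic myeloid leukemia blast crisis that carried an inducible hairpin against EVI1 and received no dox. The unmodified EVI1 library was double crosslinked and the unmodified CTBP2 library was not, and for the 4× PLASS and MOLM1 libraries the sources differ on the crosslink. Libraries from retroviral 4× PLDLS cells, inputs and histone marks were not analysed here. Nor were MYB, P300, RUNX1 and ERG in MUTZ3, EVI1 in MOLM1, or CTBP2 in MOLM1 with dox. No marker of cell type can be read from peak lists. No source says whether libraries of 1 group came from separate cultures, so the spread between them may be technical.

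The lists hold no read counts, so depth is unknown. They differed in length, with 62232 and 56526 CTBP2 peaks in the untreated libraries, 24588 and 23878 in the dox libraries, and 6688 and 31310 in the 4× PLASS libraries, against 64569 in MOLM1. Strength is given as the percentile of a peak within its own list by fold enrichment, where 100 is the strongest peak and 0 stands for no peak. A percentile does not remove the difference in length. A shorter list can lack weak peaks, which lowers the percentiles of the peaks it keeps. Fold enrichment is the ratio of ChIP signal to local background at the summit, the highest point of a peak, and was not scaled between libraries. A CTBP2 site is a merged interval with a peak in both untreated lists. There were 37227, and 15273 of them, 41.0%, had no peak in either dox list. The disappearance of CTBP2 at the leading sites is what chose the genes, and it is given below as description with no test.

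The sequences under the 3 leading CTBP2 summits are shown because they are the sites by which the genes were found. Each runs from 75 bases before to 75 bases after the summit of untreated library 1, 5′ to 3′ on the plus strand of hg19 (GRCh37). Capitals mark a match to CAGGTG on either strand, an E-box that E-proteins, among other factors, bind.
SCARF1, chr17:1546283-1546433: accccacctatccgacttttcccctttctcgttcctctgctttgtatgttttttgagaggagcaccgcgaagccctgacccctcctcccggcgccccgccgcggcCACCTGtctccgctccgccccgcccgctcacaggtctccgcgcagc
GIPC1, chr19:14607001-14607151: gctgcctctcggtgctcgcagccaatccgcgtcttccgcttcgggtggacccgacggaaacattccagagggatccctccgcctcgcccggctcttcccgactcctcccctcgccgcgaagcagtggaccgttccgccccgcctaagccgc
HGFAC, chr4:3445237-3445387: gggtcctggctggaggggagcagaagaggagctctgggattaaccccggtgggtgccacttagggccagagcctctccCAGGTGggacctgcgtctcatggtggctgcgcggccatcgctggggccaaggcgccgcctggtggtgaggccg

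The 3 windows were rich in G and C. GC content was 66.2% at SCARF1, 69.5% at GIPC1 and 69.5% at HGFAC, against a median of 58.3% over the same windows at 36765 CTBP2 sites. They held 15, 19 and 8 CpG dinucleotides, where the median site held 4. Medians were 57.6% GC and 4 CpG at sites with no dox peak, and 58.9% and 5 at those with one. CAGGTG began 30 bases after the summit at SCARF1, on the minus strand, and 3 bases after it at HGFAC, on the plus strand, and had no match at GIPC1. It matched in 20.9% of all site windows, in 24.0% of those with no dox peak and in 18.8% of those with one. None of the 3 windows held the other 6 motifs searched on both strands, which were GATAAG (bound by GATA factors, in 3.66% of all windows), ACAAGATAA (EVI1's first zinc finger domain, 0.0762%), GAAGATGAG (its second, 0.307%), GAGGAAGT (ETS factors, 5.05%), TGTGGT (RUNX factors, 14.3%) and TGANTCA (AP-1, 4.86%). ACAAGATAA and GATAAG share letters but neither contains the other. No exon of any annotated transcript reached into the printed windows. The GIPC1 window was also found, letter for letter on the opposite strand, in the RefSeq promoter of GIPC1 (GRCh38.p14), where it spans positions -212 to -62 from the RefSeq start.

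The leading SCARF1 site spans chr17:1545993-1546590 in intron 4, with its summit 2680 bp inside the gene from the transcription start. SCARF1 lies on the minus strand at chr17:1537152-1549038. CTBP2 fold enrichment was 28.6 in untreated library 1 and 9.70 in untreated library 2, at percentiles 99.0 and 84.7, and no dox list had a peak there. The nearest CTBP2 peaks of the dox libraries lay 6.49 and 5.06 kb away. The 2 untreated libraries thus both placed the site in the upper part of their lists, but not at the same height. Among the other CTBP2 lists it was called in MOLM1, at percentile 68.9, and in 4× PLASS library 1, at percentile 77.9, and not in 4× PLASS library 2 or in unmodified MUTZ3. EVI1 was called in untreated library 2 at percentile 74.1 and in dox library 1 at percentile 53.1, and in neither of their replicates. The EVI1 lists of each treatment therefore disagreed on this site, and the EVI1 groups overlapped.

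The leading GIPC1 site spans chr19:14606424-14607582 across the start of GIPC1, a minus-strand gene at chr19:14588572-14606961, and its summit lies at -115 bp from that start, on the upstream side. CTBP2 fold enrichment was 27.8 and 18.4 in the untreated libraries, at percentiles 98.9 and 97.4, and the nearest CTBP2 peaks of the dox libraries lay 54.7 and 55.2 kb away. Both untreated libraries ranked it near the top. It was also the site called most widely, in 10 of the 13 lists. CTBP2 stood at percentile 65.0 in unmodified MUTZ3, 56.4 in 4× PLASS library 2 and 24.9 in MOLM1, with no peak in 4× PLASS library 1. EVI1 stood at 84.0 and 88.9 in the untreated inducible libraries, at 29.1 and 25.8 in the dox libraries, and at 41.6 in unmodified cells. EVI1 thus had a peak in both dox libraries where CTBP2 had none, and both dox values were lower than both untreated values. The EVI1 dox lists were longer, with 53806 and 47599 peaks. Their peaks at this site ranked 38166 and 35300, beyond the whole length of the CTBP2 dox lists, 24588 and 23878. EVI1 and CTBP2 lists were not compared at equal length.

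The leading HGFAC site spans chr4:3444840-3446142, with its summit in intron 4 and 1617 bp downstream of the start of HGFAC, a plus-strand gene at chr4:3443695-3451213. CTBP2 fold enrichment was 25.1 in untreated library 1 and 5.03 in untreated library 2, at percentiles 98.3 and 39.2. The second untreated library therefore ranked this site below the middle of its list. The nearest CTBP2 peaks of the dox libraries lay 40.4 and 54.2 kb away. No CTBP2 peak was found there in MOLM1, unmodified MUTZ3 or either 4× PLASS library, so in these files CTBP2 was called at this site in the 2 untreated inducible libraries alone. EVI1 was called at percentiles 84.1 and 88.8 in the untreated libraries, at 57.9 in dox library 1, and not in dox library 2 or in unmodified MUTZ3. The summits of all peaks at a leading site lay close together, within 76 bp at SCARF1, 79 bp at GIPC1 and 77 bp at HGFAC.

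**Figure D1:**
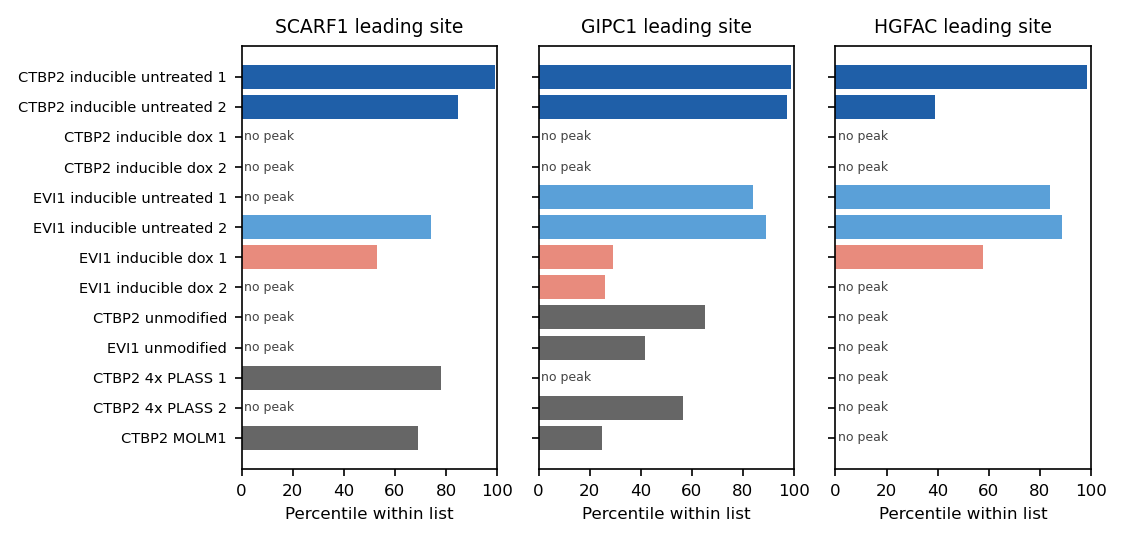
Percentile of the strongest peak at each leading site within each of the 13 lists (horizontal axis, 0 to 100; 1 bar per library, no peak written where none was called; blue for untreated and red for dox inducible libraries, grey for the others). CTBP2 has no peak in the dox lists. EVI1 at GIPC1, from longer dox lists, stands at 29.1 and 25.8 with dox against 84.0 and 88.9 without.

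The order of the 3 sites rests on untreated library 1. The 4th, 5th and 6th sites by the same value were nearest to ATP5ME, RAPH1 and BRF1, at fold enrichments of 22.6, 22.2 and 22.1, against 25.1 for HGFAC. Ordered by untreated library 2 instead, GIPC1 was again number 1 of the 15273 sites with no dox peak, SCARF1 was number 373 and HGFAC number 7740. Of the 1059 CTBP2 sites at least as strong as HGFAC in untreated library 1, 3 had no dox peak, 0.283%, and these are the 3 leading sites by construction. Sites of like strength in both untreated libraries, grouped in steps of 10 percentile points, had no dox peak in 39 of 3508 cases (1.11%) around GIPC1, 91 of 1624 (5.60%) around SCARF1 and 7 of 26 (26.9%) around HGFAC. When the 4 CTBP2 lists were each held to their 23878 strongest peaks, the sites of SCARF1 and GIPC1 were still in both untreated lists, and that of HGFAC was no longer in untreated library 2 and would not have been chosen.

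**Figure D2:**
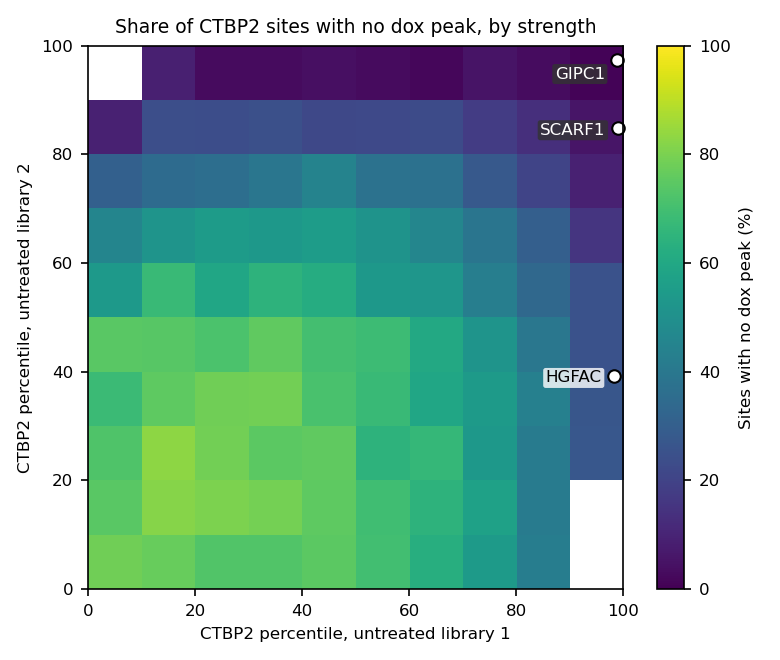
Percent of CTBP2 sites absent from both dox lists (color), by percentile in untreated library 1 (horizontal) and untreated library 2 (vertical), in squares of 10 by 10 points, with squares of under 20 sites left white; circles mark the 3 leading sites. Over all squares the share runs from 1.11%, in the square that holds GIPC1, to 83.0%, and the squares of SCARF1 and HGFAC stand at 5.60% and 26.9%.

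Across whole windows, CTBP2 peaks numbered 8 and 9 untreated and 2 and 2 with dox at SCARF1, 7 and 6 untreated and 0 and 0 with dox at GIPC1, and 5 and 2 untreated and 0 and 0 with dox at HGFAC. The windows held 12 CTBP2 sites, 6 at SCARF1, 4 at GIPC1 and 2 at HGFAC, of which 4, 4 and 2 had no dox peak. Leaving out the leading sites, 7 of 9 had none, beside 41.0% of all sites. The other sites were not themselves picked, but they come from the same contrast, and nothing is read from that share. GIPC1 and HGFAC were 2 of 1410 genes, among 16616 with a site, whose window had no CTBP2 peak in either dox list, which is 8.49%. The median gene with a site had 3 of them, with 40% missing from both dox lists. More sites were found for SCARF1 than for 75.6% of genes, and fewer for HGFAC than for 60.4%.

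**Figure D3:**
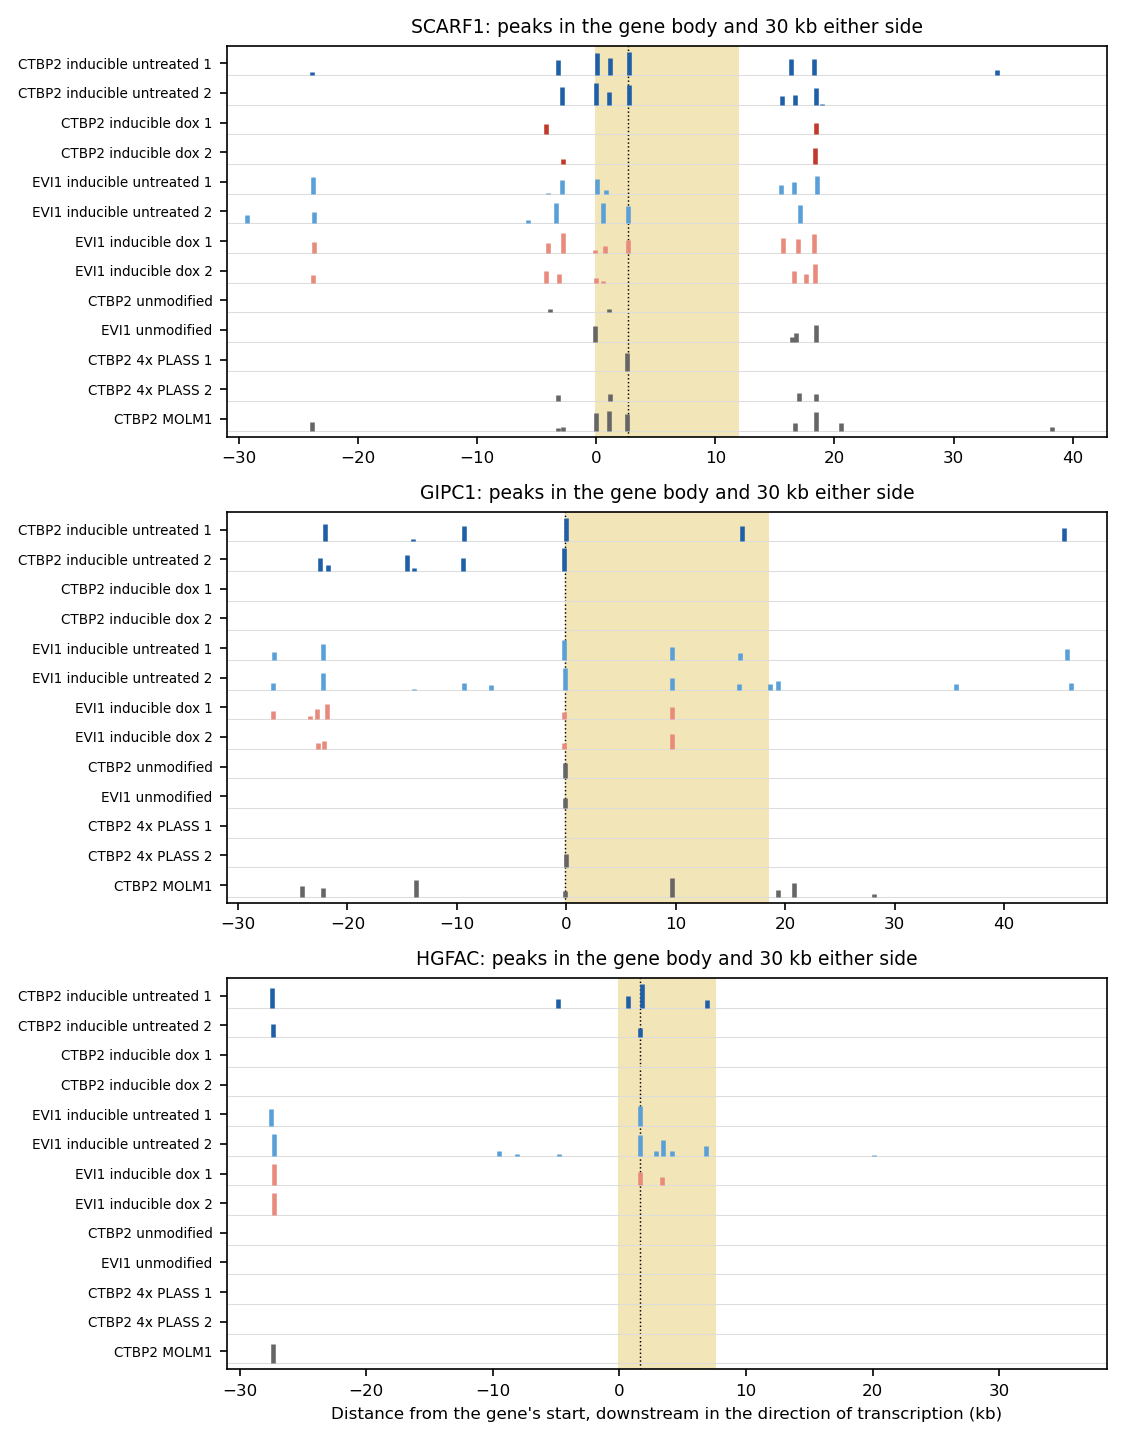
Peaks of the 13 lists along each gene (shaded) and 30 kb on either side, by distance from the gene's start in kb, downstream to the right. Each bar is 1 peak, its height the percentile within its list on a scale of 0 to 100 per row, and the dotted line marks the leading summit. The CTBP2 dox rows hold 2 peaks each at SCARF1 and none at GIPC1 or HGFAC; the unmodified EVI1 peak at HGFAC, at percentile 1.00, is too low to see.

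The SCARF1 window held CTBP2 sites of both kinds. The promoter site (chr17:1548633-1549371, summit 19 bp inside the first exon, in its untranslated part) stood at percentiles 93.5 and 90.5 untreated and was in neither dox list. A further intron site 1087 bp from the start stood at 71.9 and 53.1 untreated and was in neither dox list, and neither was a site at -109 bp from the start of SLC43A2, an amino acid transporter gene, which stood at 69.3 and 40.8. A pair of sites outside SCARF1 had a peak of both dox lists. One, in an intron of SLC43A2, stood at 68.8 and 71.3 untreated and at 46.1 and 68.6 with dox. The other is a merged interval of 2240 bp over RILP, whose product links late endosomes to dynein, and its peaks do not share 1 position. Untreated library 1 had its summit there 228 bp inside RILP, at percentile 65.4, and untreated library 2 had its stronger one 1409 bp inside, at 73.4. The dox peaks did not overlap each other, with a summit at -30 bp from the RILP start in dox library 1, at 45.3, and 1464 bp inside in dox library 2, at 19.8. The 2 strongest sites of the window were thus without a dox peak, and sites of middle rank were found both with and without one. All 6 sites of the SCARF1 window were called in MOLM1.

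The other GIPC1 sites lay upstream of the gene. The site at -9395 bp from the start stood at CTBP2 percentiles 66.0 and 55.1 untreated and was called in none of the other CTBP2 lists. The site at -14078 bp was weak, at 9.14 and 12.3, but stood at 71.2 in MOLM1. The last, in an intron of DNAJB1, a heat shock cochaperone, lay 1831 bp from the start of TECR, a fatty acid elongation gene, and stood at 72.2 and 55.4. EVI1 stayed called there with dox, at 65.4 and 31.2 against 68.2 and 71.0 untreated.

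HGFAC had 1 other site, in an intron of RGS12, a regulator of G protein signaling, at -27362 bp from the HGFAC start. CTBP2 stood at 82.9 and 53.8 untreated and was in neither dox list, and MOLM1 had a peak at 81.2. EVI1 stood at 70.1 and 93.0 untreated and at 88.7 and 93.3 with dox. CTBP2 peaks were thus absent with dox at both HGFAC sites, while the EVI1 groups overlapped at the RGS12 site and both dox values were lower at the leading one. No difference between these 2 sites was tested.

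Over the 12 sites, CTBP2 was called at 10 in MOLM1, where 61.9% of all sites were, at 3 in unmodified MUTZ3, where 31.2% were, at 1 in 4× PLASS library 1, where 13.7% were, and at 5 in 4× PLASS library 2, where 52.2% were. The counts in the 4× PLASS libraries stand near the shares of all sites. An EVI1 peak of both untreated lists covered 9 of the 12, where 82.3% of all sites had one. Of the 3 leading sites, SCARF1 and GIPC1 were seen in at least 1 of these 4 further CTBP2 libraries and HGFAC in none, beside 54.2% of all sites without a dox peak. Both 4× PLASS libraries called the same CTBP2 site at none of the 3 leading positions. Library 1 alone called 13.7% of all sites, so no larger share could be called by both.

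The EVI1 libraries took no part in choosing the genes. They share the input of each treatment with the CTBP2 libraries, so they are not fully independent of that choice. The number of EVI1 peaks in the SCARF1 window was 8 and 7 untreated and 9 and 8 with dox, means of 7.5 ± 0.707 and 8.5 ± 0.707 (SD, n = 2 each), and the groups touched at 8 (exact two-sided permutation test, p = 0.667). At GIPC1 it was 6 and 12 untreated and 6 and 4 with dox, 9 ± 4.24 against 5 ± 1.41 (n = 2 each, exact permutation p = 0.667). At HGFAC it was 2 and 10 untreated and 3 and 1 with dox, 6 ± 5.66 against 2 ± 1.41 (n = 2 each, exact permutation p = 0.667). The groups overlapped in all 3 windows, and with 2 libraries against 2 this test cannot give a p below 0.333. None of the 3 windows had fewer EVI1 peaks in both dox lists than in both untreated lists, which 15.5% of 18498 gene windows with an EVI1 peak had. At HGFAC the 10 peaks of untreated library 2, the longest EVI1 list with 72214 peaks, made the whole difference: without that library it was 0. At GIPC1 the difference was -1 without the same library.

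The length covered by EVI1 peaks in the GIPC1 window was 3731 and 6153 bp untreated and 2780 and 1750 bp with dox. These groups did not overlap (exact permutation p = 0.333, n = 2 each, the smallest possible). The share of gene windows that separate in this way was not counted. Untreated library 2, with the largest value, was the longest EVI1 list. At SCARF1 the covered length was 5231 and 8682 bp untreated and 7060 and 4957 bp with dox. At HGFAC it was 1093 and 4005 bp untreated and 1195 and 604 bp with dox. The groups overlapped at both of these genes.

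Within the windows, EVI1 rank was lower with dox at a pair of leading sites. At GIPC1 the mean EVI1 percentile was 86.4 ± 3.48 untreated and 27.5 ± 2.28 with dox (SD, n = 2 each), a difference of -59.0 (exact permutation p = 0.333, the smallest possible). Over 40449 EVI1 sites called in both untreated lists the median difference was -8.55, and 1.93% fell by as much as GIPC1. Among the 5458 EVI1 sites within 5 points of the same untreated mean, 2.09% fell by as much. The share among EVI1 sites at CTBP2 sites with no dox peak was not counted. Ranked by −log10 p, a MACS2 measure that also grows with depth, in place of fold enrichment, the GIPC1 difference was -26.0, with the same p of 0.333 by exact permutation. At HGFAC the mean was 86.5 ± 3.37 untreated and 28.9 ± 40.9 with dox (n = 2 each), a difference of -57.5 (exact permutation p = 0.333) that 2.33% of all EVI1 sites matched. The dox libraries disagreed there, with 57.9 in 1 and no peak in the other, and without dox library 2 the difference was -28.6. At SCARF1, where each treatment had a peak in 1 of its 2 EVI1 libraries, the difference in means was -10.5 (exact permutation p = 1.0), and the sign of the difference turned when untreated library 2 or dox library 2 was left out, to 26.5 and 16.0.

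The 3 windows held 12 EVI1 sites called in both untreated lists. Both dox percentiles were below both untreated ones at 7, beside 41.7% of all EVI1 sites, and above them at 1, in an intron of SLC43A2, beside 12.7%. Neither dox list had a peak at 2, beside 9.01%. The EVI1 site over the SCARF1 promoter stood at 60.2 and 85.5 untreated and at 27.9 and 19.8 with dox. A fall of that size was found at 11.0% of the 5452 EVI1 sites of like untreated rank. The 2 sites without a peak in either dox list were low-ranked sites of the GIPC1 window. One of them, in an intron of GIPC1 nearest to PTGER1, a prostaglandin receptor gene, stood at 28.8 and 23.4 untreated. An EVI1 site 9678 bp inside GIPC1 stood at 54.6 and 48.9 untreated and at 51.6 and 60.3 with dox, so that its groups overlapped. The leading GIPC1 site and this intron site, in the same gene, thus differed in how EVI1 rank compared between treatments, which was not tested.

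**Figure D4:**
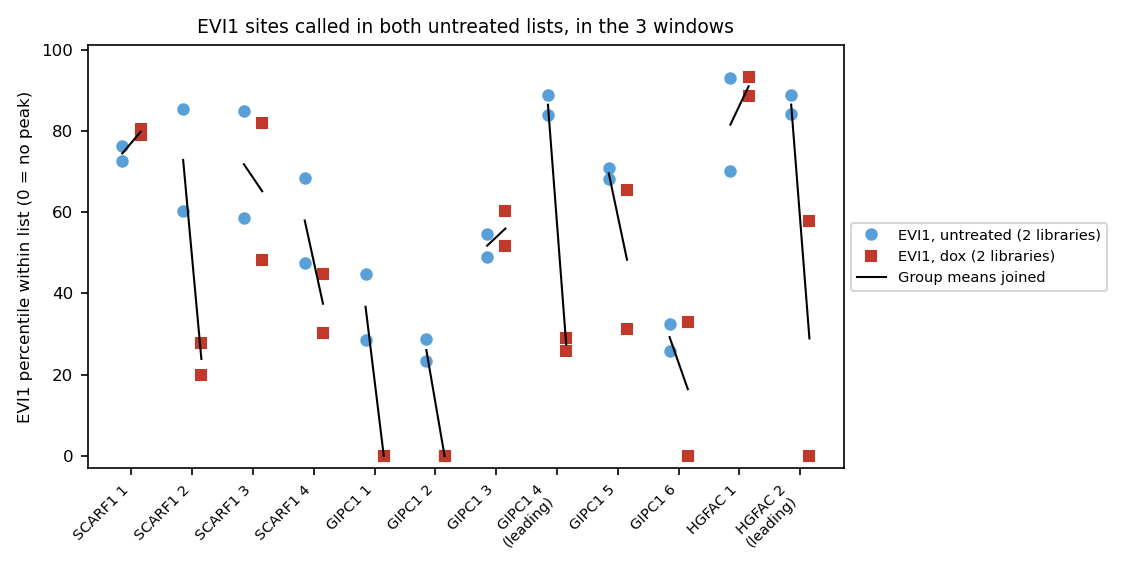
EVI1 percentile within each list (vertical axis, 0 where no peak was called) at the 12 EVI1 sites of the 3 windows, numbered by position on the chromosome; circles are the 2 untreated and squares the 2 dox libraries, and lines join the means. The leading GIPC1 site falls from 84.0 and 88.9 to 29.1 and 25.8, and the SLC43A2 intron site (SCARF1 1) is higher with dox in both libraries.

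Genes of related function were counted from lists that hold the members themselves, which were left out. For 15 other scavenger receptors, 12 had a CTBP2 site in the same kind of window, 47 sites in all, and 19 of them (40.4%) had no dox peak, beside 41.0% of all sites. The largest sets were those of SCARB1, the HDL receptor, with 7 of 12, and CXCL16, a chemokine and scavenger receptor, with 1 of 7. For 12 other members of the GIPC family or their partners, 42 of 75 sites (56%) had none, with 6 of 13 at PLXND1, a semaphorin receptor. For 12 other genes of hepatocyte growth factor activation and signaling, 28 of 54 sites (51.9%) had none. These included 8 of 15 at SPINT2, an inhibitor of the activating proteases, and 5 of 10 at PLAU, the urokinase gene, while HGF and its receptor MET had no site. Neighboring genes share windows, so sites are not independent.

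The genes with the most similar pattern were found from the percentile of the strongest peak in each window over the 13 lists. For SCARF1 they were ITSN1, CRYZL1 and TUFT1, with root mean square differences of 9.77, 11.1 and 11.2 points, against a median of 35.1 over all genes. For GIPC1 they were NPC1, SCLY and DIXDC1, at 9.08, 9.40 and 10.3 points against 38.7. For HGFAC they were DOLPP1, LSMEM1 and PDLIM1, at 7.55, 8.09 and 9.71 points against 44.4. The likeness did not extend in every case to the number of sites without a dox peak, which was 0 of 4 at NPC1 and 1 of 2 at SCLY against 4 of 4 at GIPC1, 0 of 2 at CRYZL1 against 4 of 6 at SCARF1, and 0 of 1 at LSMEM1 against 2 of 2 at HGFAC. It was 3 of 4 at TUFT1, 3 of 4 at DIXDC1, 3 of 3 at PDLIM1, 1 of 3 at ITSN1 and 1 of 2 at DOLPP1. ITSN1 and CRYZL1 are neighbors whose windows share a site. These likenesses are across 13 lists that share cells and inputs.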

How the data were processed

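ChIP-seq peaks of 13 libraries were examined as the authors deposited them, 1 list per library. By the study's methods, reads were aligned to hg19 and peaks called per library against a matched input. The submitters' processing notes name Bowtie 1.1.1 and MACS2 2.1.2. The deposited fold enrichment is a ratio of signal to local background, and 2 further deposited columns give −log10 of the p-value and of the q-value at the summit. The deposited score repeats the −log10 q and was not used. No depth is given, so no interval for counting error was possible.

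Peaks sharing at least 1 bp were merged. Genes came from GENCODE release 44 mapped to GRCh37, and windows were the gene body plus 30 kb. All 527011 peaks on 24 chromosomes lay within GRCh37. The members and gene lists were chosen with earlier results of these data known. Named were the 3 members, genes in their windows, the 3 most similar genes to each, and up to 4 genes per family list with the most sites; some of these are not reported here. The EVI1 difference at leading sites was added after seeing the data. Groups of 2 libraries were compared by exact two-sided permutation tests of each value, with no adjustment over windows. Site finding was tested on simulated data. Alternatives were stricter peaks, other flanks, overlaps and summit rules, equal list lengths, sites of either untreated list, libraries left out in turn, rank by −log10 p and replicate blocks. Python 3.11.15 with numpy 2.4.6, pandas 2.3.3, pysam 0.24.0 and matplotlib 3.10.9 was used.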

Additional observations from a re-analysis of the deposited data

How the results depend on the processing

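The EVI1 peak difference (dox minus untreated) at SCARF1, 1 peak, turned to -0.5 with a fold enrichment of at least 5 and to -2.5 with 100 kb flanks. That at GIPC1, -4, became 0 with lists of equal length, and that at HGFAC, -4, ranged from -8 to 0 when a library was left out. CTBP2 sites without a dox peak with 100 kb flanks were 10 at SCARF1, 16 at GIPC1 and 5 at HGFAC, and with lists of equal length 2, 1 and 0, since fewer sites remained in the untreated lists. With 10 kb flanks they were 2 at GIPC1 and 1 at HGFAC, and with sites of either untreated list 8 and 5. With a library left out they ranged from 4 to 7 at GIPC1 and from 2 to 5 at HGFAC, the highest without untreated library 2. The EVI1 percentile difference at the leading SCARF1 site, -10.5, ranged from -47.5 to 26.5 with a library left out. The other 78 of 96 alternatives kept the direction, or a count within 1.5 times, and no setting could give a p under 0.333. The 78 include the replicate blocks, which cannot change a difference in means. By construction, the replicate block left each difference as it was (1, -4 and -4 peaks, and -10.5, -59.0 and -57.5 points). No p was under 0.5, the lowest that 2 pairs allow. Deviations of same-numbered EVI1 libraries correlated at -0.202 over gene windows. With the numbers crossed, an alternative added after seeing the data, 0 of 3 windows were called, as with the numbers as given (0). With 2 pairs no window could be called either way, so nothing is read from these counts. Unknown depth limits every absence of a peak: a missing peak may be signal under MACS2's threshold.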
